A study of Homo sapiens with 4 samples.

Results

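The genes described here are 48 genes of mitosis and of the G2/M part of the cell cycle that were listed by gene name. Each gene was represented by its brightest probe on an Agilent expression array. All 48 were on the array and all 48 were well above background on all 4 arrays, out of 17353 gene names that were well above background on at least 1 array. The study compared MDS-L, an established cell line from a patient with myelodysplastic syndrome (MDS), with MDS-L/CDA, its derivative carrying a transduced gene for cytidine deaminase (CDA), an enzyme that inactivates cytidine analogues and makes the cells resistant to AZA. AZA is 5-azacytidine, a cytidine analogue that is built into RNA and DNA and traps DNA methyltransferases. Both lines received 0.1% DMSO (vehicle) or 1 μM AZA for 72 h in medium with 20 ng/mL IL-3, 10% FBS and 50 μM mercaptoethanol.

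Each of the 4 conditions was measured on 1 array of 1 slide, so that no difference below has a replicate check, and no test was made. The labels are not free of conflict, since the characteristics of 2 samples (MDS-L with AZA, and MDS-L/CDA with vehicle) give the treatment that their title, description and source name contradict, and a dose of 1 mM appears as well as 1 μM. The title, description and source name were followed here. The 75th percentile of the signal was between 37.3 and 52.9 on the 4 arrays, and each signal below is given as a multiple of that value on its own array (scaled signal). The 300 probes printed as 10 spots on each array gave the only measure of technical error. Their spots had an SD between 0.182 and 0.293 on the log2 scale, which corresponds to an SD of 0.327 for a log2 ratio of single spots. The probe of CDA itself (hg19, chromosome 1, 20945069 to 20945128) stayed below the background limit on every array, so the transduced gene could not be checked by it. Of 12 markers of myeloid progenitors, 10 were well above background on every array, while MPO and FLT3 were not, and none of the 3 fibroblast markers was.

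Cells that have copied their DNA pass through G2 and enter mitosis when cyclin B activates the kinase CDK1. Chromosomes are then condensed and attached through their kinetochores to a spindle built by kinesin motors and microtubule-binding proteins, the spindle assembly checkpoint holds anaphase back until every chromosome is attached, and ubiquitination of cyclin B and securin by the anaphase-promoting complex releases the sister chromatids. Most of these genes are transcribed in late S, G2 and M phase only, so their RNA level in a culture depends on how many cells are in those phases. Their promoters are known for a cell cycle homology region (CHR), an element with the core TTTGAA through which the DREAM complex represses them in resting cells and MYBL2 and FOXM1 activate them in cycling cells, and for CCAAT boxes bound by NF-Y.

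To show the sequences that these genes share, promoter windows of 300 bases from RefSeq (build GRCh38.p14, 250 bases before the gene start to 50 bases after it) were searched for both motifs on both strands. Windows were found for 42 of the 48 genes, 49 windows in all. AURKA, TTK, BIRC5, TPX2, UBE2C and FOXM1 were not matched. TTTGAA or its reverse complement TTCAAA was present in 35 of the 49 windows (71.4%) and in 15.2% of all 35114 windows of that length. CCAAT or its reverse complement ATTGG was present in 77.6% of the windows of the mitotic genes and in 34.6% of all windows. The variant TTTAAA, which reads the same on both strands, was in 28.6% of the windows against 12.2% of all. The variant TTCGAA, also the same on both strands, was in 4.08% against 1.45%. The match to TTTGAA lay near the start. Of 48 matches in these windows, 23 began within the 50 bases upstream of it. The stretches of 90 bases that end directly before the start are shown for 10 genes whose results are described below, on the strand of the gene from 5′ to 3′, with the matches to both motifs in capitals. They are those of the 6 genes BUB1B, INCENP, KIF11, ANLN, CDK1 and PLK1, which were lower with AZA in MDS-L cells, of KIF18A, with the largest difference between the lines, of ESPL1, of CCNB2, whose level hardly differed with AZA in MDS-L cells, and of HMMR, which was higher.
BUB1B (chr15:40160979-40161068, plus strand): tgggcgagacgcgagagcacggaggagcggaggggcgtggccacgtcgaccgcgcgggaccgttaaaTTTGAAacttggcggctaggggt
INCENP (chr11:62123921-62124010, plus strand): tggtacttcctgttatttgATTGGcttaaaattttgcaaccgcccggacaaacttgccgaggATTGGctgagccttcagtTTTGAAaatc
KIF11 (chr10:92593040-92593129, plus strand): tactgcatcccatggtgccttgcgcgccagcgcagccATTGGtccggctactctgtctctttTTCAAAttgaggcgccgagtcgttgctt
ANLN (chr7:36389772-36389861, plus strand): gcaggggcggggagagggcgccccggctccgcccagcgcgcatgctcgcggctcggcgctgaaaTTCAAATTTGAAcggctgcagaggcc
CDK1 (chr10:60778388-60778477, plus strand): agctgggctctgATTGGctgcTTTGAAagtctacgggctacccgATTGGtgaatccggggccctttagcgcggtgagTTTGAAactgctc
PLK1 (chr16:23678799-23678888, plus strand): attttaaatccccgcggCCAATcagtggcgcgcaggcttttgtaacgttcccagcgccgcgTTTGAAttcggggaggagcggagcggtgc
KIF18A (chr11:28108157-28108246, minus strand): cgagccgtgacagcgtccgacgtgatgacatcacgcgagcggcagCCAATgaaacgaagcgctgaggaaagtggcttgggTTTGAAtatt
ESPL1 (chr12:53268209-53268298, plus strand): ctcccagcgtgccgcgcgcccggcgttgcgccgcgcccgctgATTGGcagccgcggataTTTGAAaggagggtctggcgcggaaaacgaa
CCNB2 (chr15:59105056-59105145, plus strand): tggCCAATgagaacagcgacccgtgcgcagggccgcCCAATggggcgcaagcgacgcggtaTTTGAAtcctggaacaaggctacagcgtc
HMMR (chr5:163460542-163460631, plus strand): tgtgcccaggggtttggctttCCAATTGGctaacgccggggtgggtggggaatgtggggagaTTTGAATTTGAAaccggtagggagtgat
The 10 stretches were picked from windows with a match in these 90 bases. All 10 therefore hold TTTGAA or, in KIF11, its reverse complement TTCAAA, by selection. Of the 42 genes with windows, 32 had a match. HMMR has 2 adjacent copies of TTTGAA, ANLN has TTCAAA directly followed by TTTGAA, and CDK1 has 2 separate matches. No match to TTTGAA or TTCAAA was found in the windows of 10 other genes, among them CCNA2, CCNB1, CENPE, AURKB, NEK2, PTTG1 and MYBL2, which are not shown. The plot of motif positions gives the shares along the window. A match is only a run of letters and does not show that a factor was bound in these cells.

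**Figure D1:**
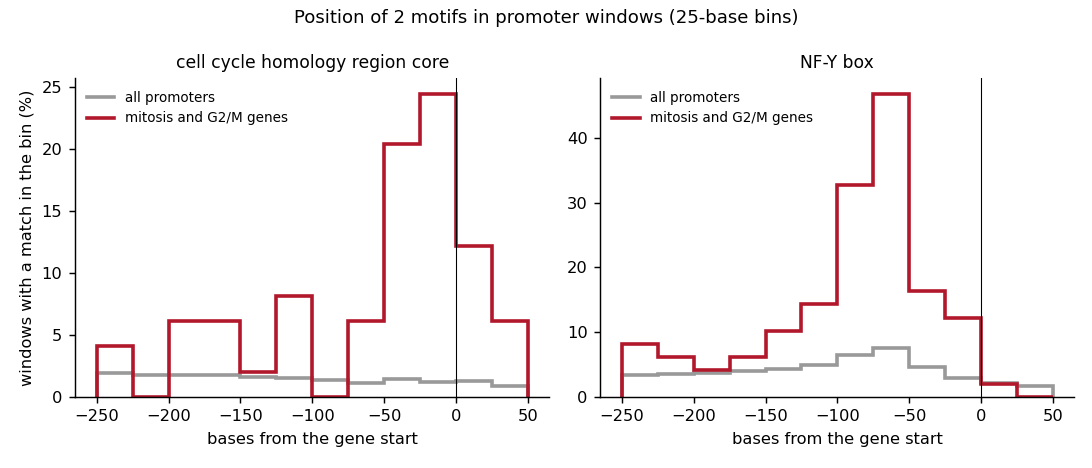
Share of promoter windows (%) with a match that begins in each bin of 25 bases, against the distance from the gene start in bases, for the CHR core TTTGAA (left panel) and the NF-Y box CCAAT (right panel), each on both strands. Red lines stand for the 49 windows of the mitosis and G2/M genes and grey lines for all 35114 windows. The share with TTTGAA was 24.5% in the last 25 bases before the start, against 1.17% of all windows, and that with CCAAT was 46.9% between 75 and 51 bases upstream, against 7.62%.

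In MDS-L cells, nearly all mitotic genes were lower with AZA than with vehicle, most of them by less than 2-fold except under median scaling. The AZA/vehicle ratio was below 1 for 46 of the 48 genes, where 58.9% of all 17172 genes measured in this pair were below 1. The median ratio of the mitotic genes was 0.727 (log2 ratio −0.46), and that of all genes was 0.916 (−0.13). Only SPC25 was at least 2-fold lower, where 6.03% of all genes were, and no gene of the list was at least 2-fold higher (6.73% of all genes). At a ratio of 1.5, 15 genes were lower (18.1% of all genes) and 0 were higher (14.1%). By more than the spot noise of 0.327 log2 units, 35 genes were lower (34.7% of all genes). Genes of a signal between the quartiles of the mitotic genes, a comparison chosen after the data were seen, were below 1 in 70.6% of 3237 cases and at least 1.5-fold lower in 19.9%, with a median log2 ratio of −0.23. In arrays of bulk RNA, fewer cells in G2 and M and less RNA per cell cannot be told apart. The number of genes below 1 was between 39 and 48 under 6 other normalizations, where between 49.7% and 82.8% of all genes were. Under every one of them the median of the mitotic genes was below that of all genes. The size of the shift depended on the normalization. Under median scaling 24 genes were at least 2-fold lower and the median log2 ratio was −1.001. All genes had a median of −0.668 there, and 82.8% of them were below 1. The share of all genes at least 2-fold lower there is not given, so the 24 cannot be read as particular to these genes. Under the other 5 normalizations the count at least 2-fold lower was 1 or 2.

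In MDS-L/CDA cells, the same genes were close to or slightly above their vehicle level. The ratio was above 1 for 38 of the 48 genes, where 51.7% of all 15393 genes measured in this pair were above 1, and the median ratio was 1.11 (log2 ratio 0.15) against 0.02 on the log2 scale for all genes. No gene was 2-fold lower (3.07% of all genes) or 2-fold higher (2.53%). BUB1B was the only gene at least 1.5-fold lower (9.6% of all genes), and CCNB1, MAD2L1 and KIF18A were at least 1.5-fold higher (9.32%). By more than the spot noise, 12 genes were higher (21.5% of all genes) and 3 were lower (21.4%). Neither count of higher genes was far from the share among all genes. The number below 1 depended on the normalization and was between 9 and 23 under the 6 others, where between 45.4% and 61.4% of all genes were.

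**Figure D2:**
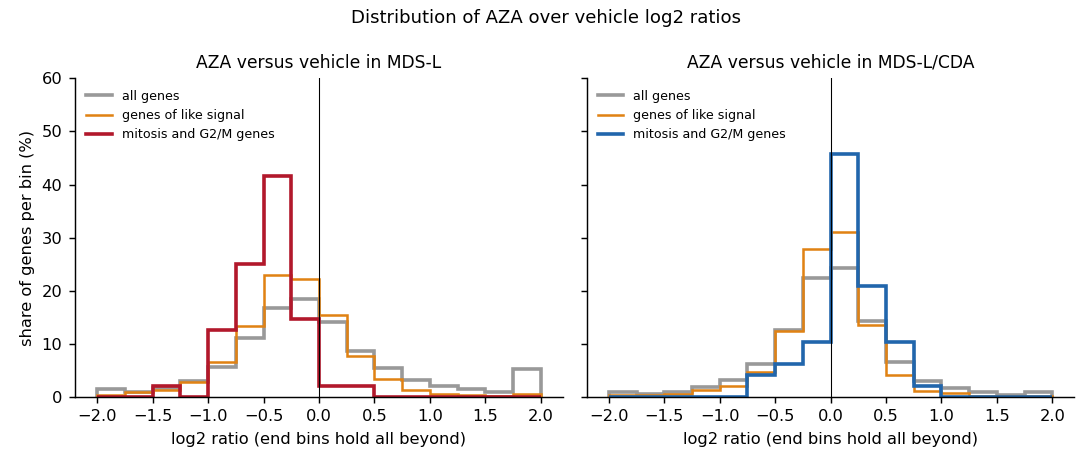
Share of genes (%) in bins of 0.25 of the log2 AZA/vehicle ratio in MDS-L cells (left panel) and MDS-L/CDA cells (right panel), with the end bins holding all genes beyond them. Grey lines are all genes measured in the pair, orange lines the 3237 genes with a signal between the quartiles of the mitotic genes, and red or blue lines the 48 mitosis and G2/M genes. The mitotic genes lay to the left of both other curves in MDS-L cells, with a median of −0.46, and just right of 0 in MDS-L/CDA cells, with a median of 0.15.

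The difference between the lines was computed gene by gene as the log2 ratio in MDS-L cells minus that in MDS-L/CDA cells. It was below 0 for 47 of the 48 genes, where 61.3% of all 15212 genes and 69.3% of the genes of like signal were below 0. Its median was −0.59 for the mitotic genes, −0.14 for all genes and −0.22 for the genes of like signal. PTTG1 was the exception at 0.11, and between 41 and 48 genes were below 0 under the other normalizations. The share of all genes below 0 is not given for those. Median scaling, which gave the 48, had AZA/vehicle medians of all genes of −0.668 in MDS-L and −0.04 in MDS-L/CDA cells. In direction, 36 genes were lower in MDS-L and higher in MDS-L/CDA cells (26.2% of all genes), 10 were lower in both (36.3%) and 2 were higher in both (25.4%). The direction changed with the normalization for 9 of the 48 genes in MDS-L cells and for 16 in MDS-L/CDA cells, which are pointed out below where they are described. With 1 array per condition, this difference was not tested.

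**Figure D3:**
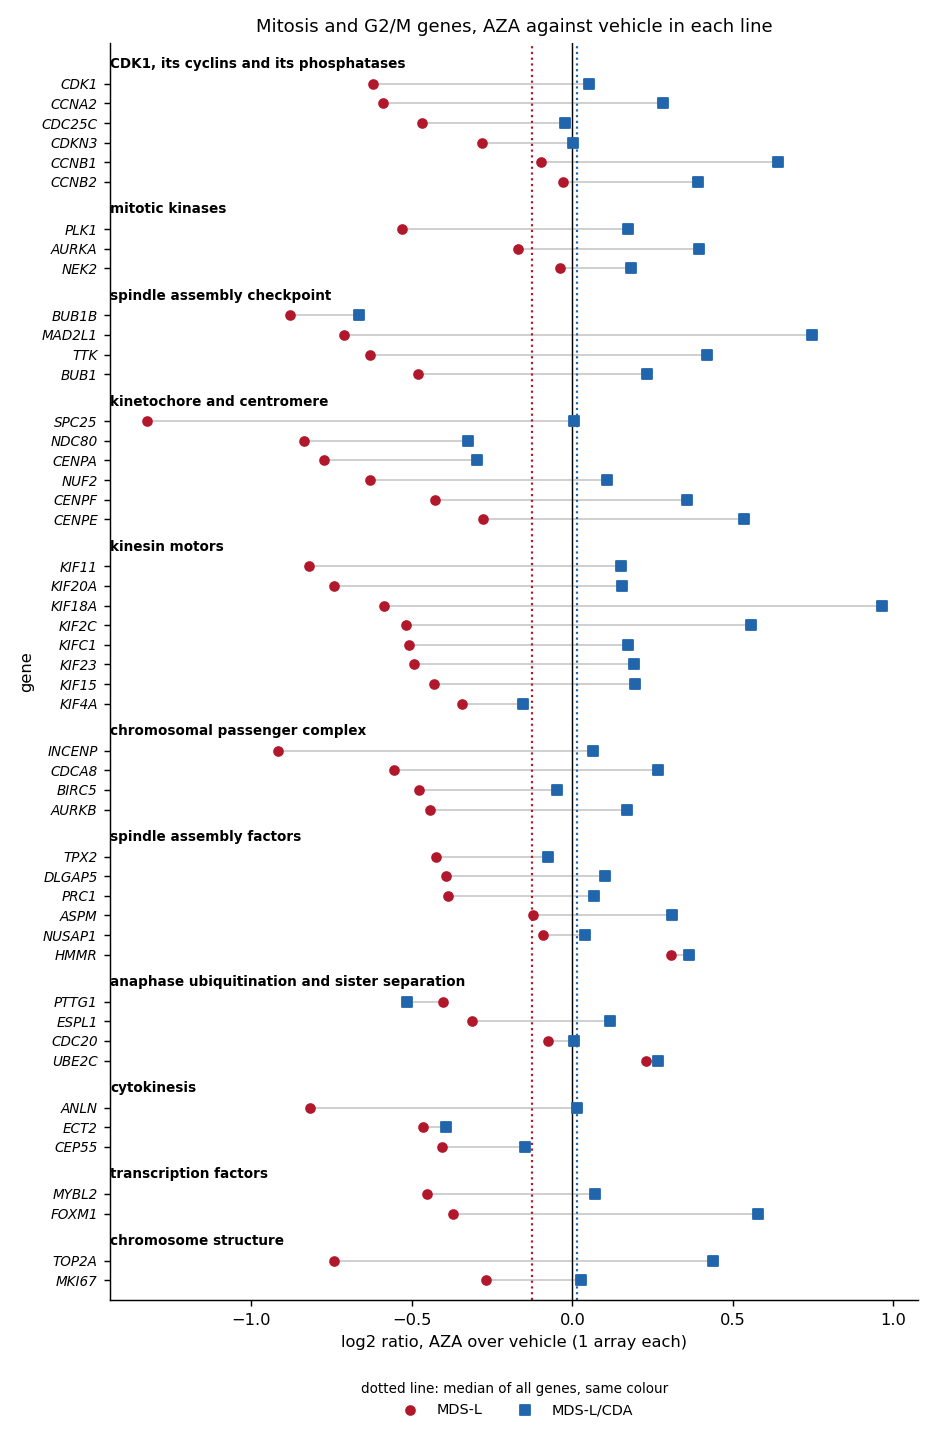
Log2 ratio of AZA over vehicle (x axis) for each of the 48 genes (y axis), grouped by role, in MDS-L cells (red circles) and MDS-L/CDA cells (blue squares), 1 array per condition. Dotted lines mark the median of all genes in the same colour. In 46 genes the red circle lies left of 0, in 38 the blue square lies right of 0, and the widest gap is that of KIF18A, from −0.59 to 0.96.

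CDK1, its cyclins and its phosphatases were lower with AZA in MDS-L cells in 6 of 6 genes, with a median log2 ratio of −0.38, and their median was 0.17 in MDS-L/CDA cells. Beside this and the following role groups, 58.9% of all genes were below 1 in MDS-L and 51.7% above 1 in MDS-L/CDA cells. CDK1, the kinase that drives entry into mitosis, had a scaled signal of 33.5 (vehicle) and 21.8 (AZA) in MDS-L, and 29.7 (vehicle) and 30.8 (AZA) in MDS-L/CDA. Its ratio was thus 0.651 in MDS-L and 1.04 in MDS-L/CDA cells, and the second of these changed side of 1 with the normalization. Cyclin A2 (CCNA2), which activates CDK2 in S phase and CDK1 in G2, had signals of 31.2, 20.7, 38.9 and 47.3 in the same order of arrays, with ratios of 0.664 and 1.22. The 2 B-type cyclins, the activators of CDK1 at mitosis, were hardly lower in MDS-L cells. CCNB1 gave 131.9, 123.2, 125.9 and 196.3 (ratios 0.934 and 1.56), and CCNB2 gave 108.8, 106.7, 107.6 and 141.1 (ratios 0.981 and 1.31). In MDS-L cells the direction of CCNB1 and CCNB2 changed with the normalization, whereas both were higher with AZA in MDS-L/CDA cells under all 7. By their brightest probes, cyclin A2 and CDK1 were thus lower in MDS-L cells while the B-type cyclins were near their vehicle level. A second, much dimmer probe of CDK1 had ratios of 0.976 (MDS-L) and 1.48 (MDS-L/CDA). The spots of the brightest CDK1 probe also overlapped between the MDS-L arrays.

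The role group of mitotic kinases held PLK1, AURKA and NEK2. Its median log2 ratio was −0.17 in MDS-L and 0.18 in MDS-L/CDA cells, the former being above 0 under 2 of 7 normalizations. The kinases CDK1, BUB1, TTK and AURKB are also in the list but were placed in other role groups. Their log2 ratios in MDS-L cells were −0.62, −0.48, −0.63 and −0.44, each below 0 under all 7 normalizations. The median of this group thus does not stand for all kinases of the list. PLK1, the kinase that promotes mitotic entry and centrosome maturation, had scaled signals of 23.8 (vehicle) and 16.5 (AZA) in MDS-L, and 28.3 (vehicle) and 31.9 (AZA) in MDS-L/CDA, with ratios of 0.692 and 1.13. AURKA, which acts at the spindle poles, had signals of 46.5, 41.3, 47.4 and 62.4 in that order (0.889 and 1.32). NEK2, a kinase of centrosome separation, had signals of 1.72, 1.68, 1.80 and 2.05 (0.975 and 1.14). AURKA and NEK2 changed side of 1 with the normalization in MDS-L cells, and so did NEK2 in MDS-L/CDA cells. PLK1 was thus the only kinase of this role group with 1 direction in MDS-L cells under all 7 normalizations.

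The genes of the spindle assembly checkpoint were lower with AZA in MDS-L cells in 4 of 4 cases, with a median log2 ratio of −0.67, and their median was 0.33 in MDS-L/CDA cells. BUB1B encodes BUBR1, which holds back the anaphase-promoting complex. Its probe (chromosome 15, 40512828 to 40512887 of hg19) had scaled signals of 60.01 (vehicle) and 32.6 (AZA) in MDS-L, and 71.8 (vehicle) and 45.2 (AZA) in MDS-L/CDA. It was lower with AZA in both lines, with ratios of 0.543 and 0.63. MAD2L1 (chromosome 4, 120981346 to 120981405) encodes MAD2, the checkpoint protein that binds CDC20, and its signals in that order were 33.6, 20.5, 24.5 and 41.1. It was lower in MDS-L cells (ratio 0.61) and higher in MDS-L/CDA cells (1.68), which left the AZA arrays 2.006-fold apart. BUB1, a checkpoint kinase at the kinetochore, had signals of 30.2, 21.7, 28.5 and 33.5, with ratios of 0.717 and 1.18. Within this group BUB1B and MAD2L1 therefore went opposite ways in MDS-L/CDA cells.

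Kinetochore and centromere genes had the lowest median of the 11 role groups in MDS-L cells (except under normexp background correction), a log2 ratio of −0.70. There, 6 of 6 were below 1 and 4 were at least 1.5-fold lower (18.1% of all genes). In MDS-L/CDA cells their median was 0.06, and its side of 0 changed with the normalization. SPC25 (chromosome 2, 169727956 to 169728015 of hg19), a subunit of the NDC80 complex that holds microtubules at the kinetochore, had scaled signals of 38.0 (vehicle) and 15.2 (AZA) in MDS-L, and 41.9 (vehicle) and 42.0 (AZA) in MDS-L/CDA. The MDS-L AZA array stood apart from the other 3, with a ratio of 0.399 in MDS-L cells against 1.00 in MDS-L/CDA cells, on either side of 1 by normalization. CENPE, the kinesin that carries chromosomes to the spindle equator, had signals of 14.9, 12.3, 17.3 and 24.99, the smallest ratio difference from 1 of this group in MDS-L cells (0.825) and a ratio of 1.45 in MDS-L/CDA cells.

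The 8 kinesin motors were all lower with AZA in MDS-L cells, with a median log2 ratio of −0.51 and 3 at least 1.5-fold lower (18.1% of all genes). In MDS-L/CDA cells 7 of 8 were above 1, and the median was 0.18. KIF11, also called Eg5, the motor that pushes the spindle poles apart, had scaled signals of 34.9 (vehicle) and 19.8 (AZA) in MDS-L, and 39.4 (vehicle) and 43.7 (AZA) in MDS-L/CDA (ratios 0.567 and 1.11). KIF4A, a chromosome-bound motor that also acts at the midzone, had signals of 11.02, 8.69, 12.9 and 11.6 (0.788 and 0.898) and was the only kinesin below 1 in both lines. KIF18A (chromosome 11, 28042416 to 28042475 of hg19), which dampens chromosome movement at the spindle, had the largest difference between the lines of all 48 genes, except under normexp background correction, where TOP2A did. Its signals were 3.13, 2.08, 2.19 and 4.26, with ratios of 0.666 (MDS-L) and 1.95 (MDS-L/CDA) and a log2 difference of −1.55. Its vehicle signals also differed, being lower in MDS-L/CDA cells (ratio 0.699), so that the AZA arrays alone differed by less than this.

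The chromosomal passenger complex, which corrects faulty attachments and directs cytokinesis, was lower with AZA in MDS-L cells in 4 of 4 genes (median log2 ratio −0.52). In MDS-L/CDA cells its median was 0.12, and −0.01 under 1 of 7 normalizations. INCENP, its scaffold, had scaled signals of 34.3 (vehicle) and 18.2 (AZA) in MDS-L, and 27.7 (vehicle) and 28.9 (AZA) in MDS-L/CDA, with ratios of 0.53 and 1.05, the second changing side of 1 with the normalization. AURKB, its kinase, had signals of 7.14, 5.25, 8.58 and 9.65, with ratios of 0.735 and 1.13. The scaffold was thus further below its vehicle level than the kinase in MDS-L cells.

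Spindle assembly factors had, in median, a log2 ratio of −0.25 in MDS-L cells, with 5 of 6 below 1 and none at least 1.5-fold lower (18.1% of all genes). In MDS-L/CDA cells their median was 0.08, and both medians changed sign with the normalization. TPX2, which activates AURKA and nucleates microtubules, had scaled signals of 109.2 (vehicle) and 81.3 (AZA) in MDS-L, and 123.1 (vehicle) and 116.9 (AZA) in MDS-L/CDA (ratios 0.745 and 0.949). DLGAP5, a stabilizer of kinetochore microtubules also called HURP, had signals of 33.8, 25.7, 44.8 and 48.1 (0.761 and 1.07, the second changing side of 1 with the normalization). HMMR, the hyaluronan-mediated motility receptor, which binds spindle microtubules, had signals of 46.3, 57.3, 62.8 and 80.9. It was above 1 in both lines, with ratios of 1.24 and 1.29. Under median scaling it was below 1 in MDS-L cells, as were all 48 genes and 82.8% of all genes measured.

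The genes of ubiquitination at anaphase and of sister separation had, in median, a log2 ratio of −0.20 in MDS-L and 0.06 in MDS-L/CDA cells, both of which changed sign with the normalization. UBE2C, the ubiquitin-conjugating enzyme of the anaphase-promoting complex, had scaled signals of 86.4 (vehicle) and 101.1 (AZA) in MDS-L, and 109.5 (vehicle) and 131.7 (AZA) in MDS-L/CDA. Like HMMR it was above 1 in both lines (1.17 and 1.204) and below 1 in MDS-L cells under median scaling. PTTG1 encodes securin, the inhibitor of separase that the complex destroys, and had signals of 283.3, 214.3, 268.4 and 187.9. Its ratios were 0.756 and 0.70, and under 75th percentile scaling it was the only gene with a lower ratio in MDS-L/CDA than in MDS-L cells. ESPL1, which encodes separase itself, had signals of 37.9, 30.5, 59.3 and 64.4 (0.805 and 1.08, the second changing side of 1 with the normalization). Securin and separase were therefore both lower with AZA in MDS-L cells, and securin also in MDS-L/CDA cells.

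For cytokinesis, the median log2 ratio was −0.47 in MDS-L and −0.15 in MDS-L/CDA cells, and it was the only role group with the same sign in both lines under 75th percentile scaling. ANLN, which encodes anillin, a scaffold of the contractile ring, had scaled signals of 2.39 (vehicle) and 1.36 (AZA) in MDS-L, and 2.14 (vehicle) and 2.16 (AZA) in MDS-L/CDA (ratios 0.568 and 1.01). CEP55, which recruits the abscission machinery to the midbody, had signals of 19.7, 14.9, 21.6 and 19.5 (0.756 and 0.904). ANLN was therefore low on the MDS-L AZA array alone and changed side of 1 with the normalization in MDS-L/CDA cells, while CEP55 was slightly below its vehicle level in both lines.

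The 2 transcription factors of the list bind the promoters of the other genes in G2. FOXM1, a forkhead factor, had scaled signals of 19.8 (vehicle) and 15.3 (AZA) in MDS-L, and 20.9 (vehicle) and 31.2 (AZA) in MDS-L/CDA, with ratios of 0.772 and 1.495. MYBL2, also called B-MYB, had signals of 14.5, 10.6, 16.8 and 17.7, with ratios of 0.73 and 1.05. Both were lower with AZA in MDS-L cells, and FOXM1 was higher in MDS-L/CDA cells, whereas MYBL2 there changed side of 1 with the normalization. TOP2A, the topoisomerase that untangles sister chromatids, had signals of 37.9, 22.7, 24.2 and 32.8 (0.598 and 1.36). The 2 vehicle arrays of TOP2A also differed, the MDS-L/CDA array being at 0.639 of the MDS-L array. MKI67, which encodes the proliferation marker Ki-67 of the chromosome surface, had signals of 13.3, 10.99, 15.2 and 15.5 (0.829 and 1.02), and its direction in MDS-L/CDA cells changed with the normalization.

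Genes printed as 10 spots show how far the spots of 1 array scatter. These were CDK1, CCNA2, CENPE, BIRC5 and INCENP. BIRC5, which encodes survivin of the chromosomal passenger complex, is named here for its spots alone. For CCNA2 in MDS-L, the spots ranged from 28.4 to 34.0 (vehicle) and from 17.8 to 23.1 (AZA), and in MDS-L/CDA from 33.1 to 46.0 (vehicle) and from 38.5 to 54.1 (AZA). For CENPE, the ranges were 14.3 to 15.4, 10.8 to 13.1, 15.5 to 19.6 and 23.5 to 27.3. In MDS-L cells the spots of the AZA array lay wholly below those of the vehicle array for both, and for CENPE the AZA spots in MDS-L/CDA cells lay wholly above those of its vehicle. In MDS-L cells INCENP ranged from 31.2 to 37.8 with vehicle and from 9.48 to 22.2 with AZA, and BIRC5 from 168.4 to 214.5 and from 129.4 to 156.7. Neither overlapped there, and both overlapped in MDS-L/CDA cells. The spots of CDK1 were the most scattered, from 22.4 to 42.4 with vehicle and from 10.0 to 40.8 with AZA in MDS-L, so that the ratio of CDK1 in MDS-L cells was within the overlap of its spots. This scatter covers the printing and scanning of 1 array and not the culture or the hybridization.

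**Figure D4:**
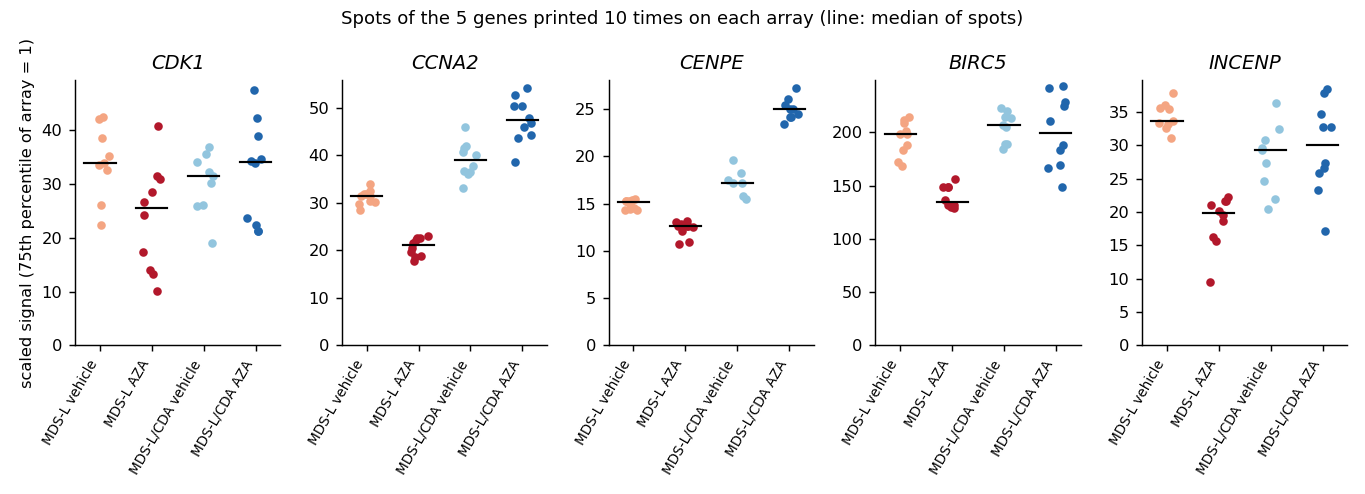
Scaled signal (y axis, multiples of the 75th percentile of the array) of each unflagged spot of the 5 genes printed 10 times, on the 4 arrays (x axis), with a black line at the median of the spots. The spots of MDS-L AZA lie wholly below those of MDS-L vehicle for CCNA2, CENPE, BIRC5 and INCENP and overlap them for CDK1, where they range from 10.0 to 40.8.

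Without AZA, the lines hardly differed in these genes. The MDS-L/CDA over MDS-L ratio in vehicle was above 1 for 32 of the 48 genes, where 57.4% of all 16015 genes and 66.5% of the genes of like signal were, and the median log2 ratio was 0.12 against 0.07 for all genes. No gene was 2-fold higher (1.97% of all genes) or 2-fold lower (2.64%). The ratios lay between 0.639, for TOP2A, and 1.56, for ESPL1. Under median scaling, no scaling and normexp background correction the median was below 0, as was that of all genes, so that no direction can be given. With AZA, the lines differed throughout. The ratio was above 1 for 47 of the 48 genes, where 61.5% of all 16739 genes and 77.2% of the genes of like signal were, and the median was 0.67 (1.59-fold) against 0.17 for all genes. Between 32 and 47 genes were above 1 under the 6 other normalizations. Of all genes, between 40.9% and 75.1% were below 1 under them. At least 2-fold higher were 8 genes (5.43% of all genes). They were SPC25 at 2.78-fold, CCNA2 at 2.29-fold, KIF11 at 2.21-fold, ESPL1 at 2.11-fold, KIF18A at 2.05-fold, FOXM1 at 2.04-fold, CENPE at 2.03-fold and MAD2L1 at 2.006-fold. This was the highest count of the 7 normalizations, and the 6 others gave between 0 and 4. The lowest values of these genes over the 7 were between 1.41-fold for MAD2L1 and 1.95-fold for SPC25. At 1.5-fold, 27 genes were higher (20.3% of all genes). These comparisons share their arrays with the AZA/vehicle comparisons and are another view of the same 4 values per gene.

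**Figure D5:**
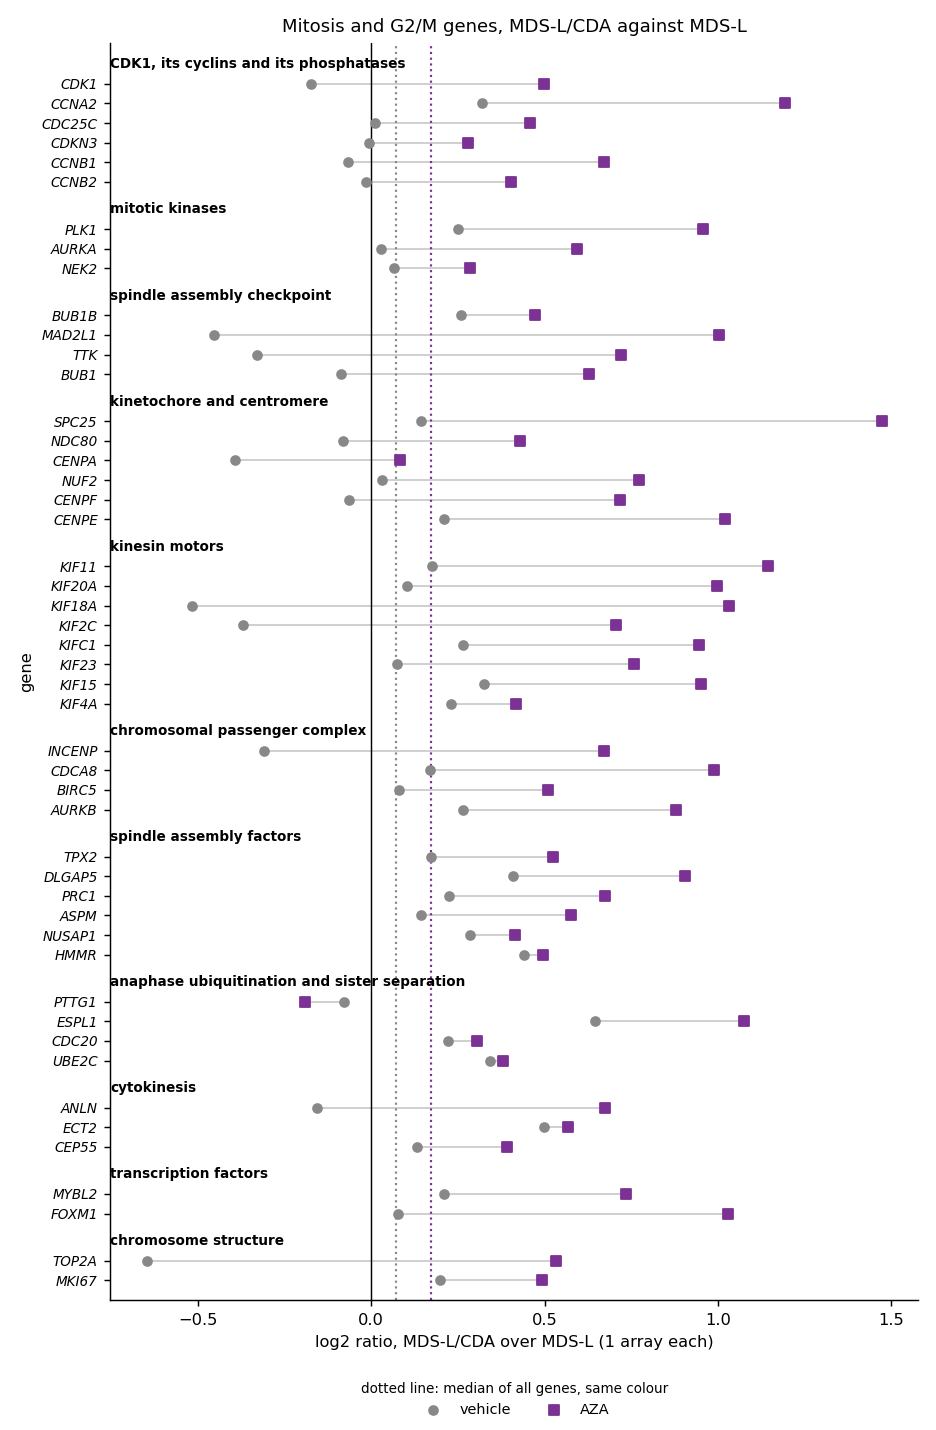
Log2 ratio of MDS-L/CDA over MDS-L (x axis) for each of the 48 genes (y axis), grouped by role, in vehicle (grey circles) and with AZA (purple squares), 1 array per condition, with dotted lines at the median of all genes in the same colour. Grey circles lie on both sides of 0, with a median of 0.12, and purple squares lie to the right of 0 for 47 genes, with a median of 0.67.

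For 11 of the 48 genes the array held other, dimmer probes, 12 in all. They had the same direction as the brightest probe in 11 of 12 cases for AZA in MDS-L cells, in 8 of 12 for AZA in MDS-L/CDA cells, in 5 of 12 between the lines in vehicle and in 10 of 12 between the lines with AZA. The exception in MDS-L cells was CCNB1, with a ratio of 1.24 for its other probe against 0.934. The 2 other probes of MKI67 were further below vehicle than the brightest, with ratios of 0.718 and 0.534 against 0.829, and were above it in MDS-L/CDA cells (1.26 and 1.48). In MDS-L/CDA cells the other probe went the opposite way for ASPM, CENPF, KIF4A and NEK2. That of ASPM, a spindle pole protein, had ratios of 0.504 (MDS-L) and 0.497 (MDS-L/CDA) against 0.919 and 1.24 for the brightest probe. For the brightest probe of ASPM, the side of 1 in MDS-L cells changed with the normalization. The other probe of PLK1 had ratios of 0.828 and 1.39.

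Related genes were looked at through 3 further lists, with the 2 lowest and 2 highest named among genes with a signal well above background in MDS-L cells with and without AZA. Of 76 other G2/M genes, 74 were measured in MDS-L cells. With AZA 68 of them were below 1 (58.9% of all genes), with a median log2 ratio of −0.42. Over 7 normalizations between 59 and 73 were below 1, where between 49.7% and 82.8% of all genes were. At least 2-fold lower were 6 (6.03% of all genes). Only CCNB3, below background in vehicle and named after its values were seen, was at least 2-fold higher (6.73% of all genes). In MDS-L/CDA cells the median of this list was 0.03, with its sign depending on the normalization. By that rule its lowest genes in MDS-L cells were ARHGAP11A (scaled signals 1.44, 0.426, 1.73 and 1.39 in the order of arrays used above, ratios 0.296 and 0.804), a GTPase-activating protein, and SMC4 (48.7, 19.2, 17.2 and 16.8, ratios 0.395 and 0.978), a condensin subunit. Its highest were KPNA2 (310.2, 373.1, 300.7 and 424.2, ratios 1.203 and 1.41), an importin, and UBE2S (191.7, 229.9, 260.4 and 285.2, ratios 1.199 and 1.095), which extends ubiquitin chains with the anaphase-promoting complex as UBE2C starts them. KPNA2 and UBE2S were below 1 in MDS-L cells under median scaling. The list thus had nearly the same median as the 48 genes in MDS-L cells. TTTGAA was in 39.2% of its promoter windows, against 15.2% of all windows.

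The 34 genes of DNA replication, an earlier step of the cycle, were all below 1 with AZA in MDS-L cells (58.9% of all genes). Their median log2 ratio was −0.68, and 6 were at least 2-fold lower (6.03% of all genes). In MDS-L/CDA cells 19 of 34 were below 1 (48.3% of all genes) and the median was −0.10. Among the lowest was CHAF1A, a histone chaperone subunit, which gave 104.5, 38.0, 42.2 and 97.6 on the 4 arrays (ratios 0.364 and 2.31). The highest were ORC1, of the origin recognition complex, with 6.81, 5.84, 13.6 and 12.6 (0.858 and 0.925), and RRM1, of ribonucleotide reductase, with 67.7, 57.9, 88.3 and 76.1 (0.855 and 0.862), which was above 1 in MDS-L cells under 2 of 7 normalizations. TTTGAA was in 2.5% of their promoter windows, against 15.2% of all windows. Whether the element had a part in the lower signal in MDS-L cells was not tested.

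Of 25 inhibitors of cyclin-dependent kinases and repressors of the cell cycle, 23 were measured in MDS-L cells and they went both ways. There were 15 below 1 (58.9% of all genes), with a median log2 ratio of −0.13 that changed sign with the normalization. At least 2-fold lower were 4 (6.03% of all genes) and at least 2-fold higher were 3 (6.73%). CDKN1C, the inhibitor p57, was at 42.9 (vehicle) and 257.3 (AZA) in MDS-L, and 63.2 (vehicle) and 111.2 (AZA) in MDS-L/CDA (ratios 6.003 and 1.76). BTG2, an antiproliferative p53 target, was at 12.9, 59.7, 18.04 and 62.4 (4.63 and 3.46). CDKN1B, the inhibitor p27, was lower at 4.09, 1.56, 3.33 and 2.44 (0.381 and 0.735), and E2F5, a factor of the DREAM complex, at 1.19, 0.489, 0.966 and 0.844 (0.412 and 0.874). CDKN1A, the inhibitor p21, was not well above background on either vehicle array and was so on both AZA arrays, at 0.313 and 0.60. The inhibitors p57 and p27 were thus on opposite sides of their vehicle levels in MDS-L cells.

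Genes with and without TTTGAA in their promoter windows were set side by side. In MDS-L cells the median log2 ratio was −0.48 for the 32 genes with a match and −0.45 for the 10 without, and in MDS-L/CDA cells it was 0.08 and 0.21. No test was made of these differences. Markers of other cell types moved in the same arrays. The summed scaled signal of the 4 mast cell and basophil markers was 30.0 (vehicle) and 198 (AZA) in MDS-L, and 11.95 (vehicle) and 54.1 (AZA) in MDS-L/CDA, with 4, 4, 3 and 4 of 4 well above background. That of 6 erythroid markers, 5 of them on the array, was 2.005, 11.6, 2.79 and 2.49, with 1, 4, 2 and 1 well above background. HBG1 made up most of it on the MDS-L AZA array (9.48), while KLF1 was at 1.42, 0.906, 2.09 and 1.46. The sum of the 3 T cell markers was 0.44, 5.80, 0.412 and 0.67, most of it CD3D on the MDS-L AZA array (4.47). That of the 4 megakaryocyte markers was 10.6, 22.5, 14.3 and 23.5, with 2, 3, 1 and 2 well above background. Most of it on every array was ITGA2B, at 9.98, 14.9, 13.8 and 22.4. The part of all these markers in the levels of the mitotic genes was not tested.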

How the data were processed

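RNA of 4 cultures was hybridized to 4 one-colour Agilent arrays with probes of 60 bases. The authors deposited the scanner output of Agilent Feature Extraction 10.7.1.1, in which the intensity of each spot is background-subtracted and not normalized between arrays, and a value table of intensity, with sorted columns no further apart than 0.039 log2 units. From the scanner intensity, control spots and outlier-flagged spots were left out, log2 signals were averaged per probe (58185 probes) and the 75th percentile of the array was subtracted. Each gene name was given its brightest probe. A gene entered a pair when well above background on at least 1 of its arrays, and was called at a ratio of 2. A signal below background was raised to the lowest signal well above it before calling. The genes and lists were chosen with earlier results of these data known. Besides 7 genes named from the outset (CDK1, CCNB1, PLK1, AURKA, FOXM1, MKI67 and TOP2A), the lowest, the highest and the most line-dependent gene of each role are named, with the 2 lowest and 2 highest of each further list (of genes with both MDS-L arrays well above background) and CDKN1A, except for 1 gene of the replication list that is not reported here. Alternatives were 6 normalizations (median, none, quantile, 7 spike-in probes, normexp with an offset of 50, the authors' table), 2 filters, 2 rules for several probes, a ratio of 1.5 and a Z score of 2 in 10 signal bins. The calling rule was tested on simulated data. Python 3.11.15, numpy 2.4.6, pandas 2.3.3, matplotlib 3.10.9, R 4.3.3 and limma 3.58.1 were used. Probe coordinates (hg19) come from the deposited files and promoters from RefSeq. The number of arrays limits the precision.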

Additional observations from a re-analysis of the deposited data

Results flagged for a closer look

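The direction of AZA against vehicle was opposite in the 2 lines for the list as a whole and for 10 of its 11 role groups, and this difference was not tested. For all 48 genes, the median log2 ratio was −0.459 in the parental line and 0.152 in the transduced line. The medians of all genes measured also had opposite signs, −0.126 and 0.015, as had those of the genes of like signal, −0.234 and 0.006. Opposite signs alone are thus not particular to the mitotic genes. In that order of lines, the medians were −0.376 and 0.167 for CDK1, its cyclins and its phosphatases, −0.17 and 0.183 for the mitotic kinases, −0.671 and 0.327 for the spindle assembly checkpoint, and −0.701 and 0.057 for the kinetochore and centromere. They were −0.514 and 0.181 for the kinesin motors, −0.517 and 0.117 for the chromosomal passenger complex, −0.254 and 0.083 for the spindle assembly factors, and −0.196 and 0.062 for ubiquitination at anaphase and sister separation. The transcription factors gave −0.413 and 0.325, and the genes of chromosome structure −0.506 and 0.232. Among single genes, MAD2L1 (−0.712 and 0.747) and KIF18A (−0.587 and 0.964) were at least 1.5-fold lower in the parental and at least 1.5-fold higher in the transduced line. Over 7 normalizations the ratio in MDS-L cells was between 0.419 and 0.708 for MAD2L1 and between 0.457 and 0.765 for KIF18A, so that neither was 1.5-fold lower under all of them, and the ratio of MAD2L1 in MDS-L/CDA cells was as low as 1.45. The medians near 0 changed sign with the normalization in MDS-L cells for the mitotic kinases, the spindle assembly factors and the anaphase genes, and in MDS-L/CDA cells for the kinetochore, the passenger complex, the spindle assembly factors and the anaphase genes.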

How the results depend on the processing

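Of the summary results, 187 values stayed in direction and within the limits set for them, 33 moved and 6 reversed. Among single genes 432 stayed and 32 moved. Another scaling shifts all genes of an array together and each array by its own amount. With median scaling the AZA/vehicle median of all genes went from −0.126 to −0.668 in MDS-L and from 0.015 to −0.04 in MDS-L/CDA cells. Relative to all genes, a measure added after the data were seen, the mitotic genes stayed below in MDS-L cells (−0.49 to −0.23) and above in MDS-L/CDA cells (0.055 to 0.151) under every setting. With median scaling the median was −1.001 in MDS-L cells with 24 genes at least 2-fold lower. In MDS-L/CDA cells 17 genes were below 1 (54.0% of all genes). In vehicle, the line ratio was −0.406 with 47 below 1 and 2 at least 2-fold lower. All genes had a median of −0.454 there, so that the 47 cannot be read as particular to the mitotic genes. With AZA, 4 were at least 2-fold higher in MDS-L/CDA, and the difference between the lines was −1.076. The shares of all genes at least 2-fold lower or higher are not given for median scaling. Without scaling, 23 were below 1 in MDS-L/CDA cells (61.4% of all genes). The line ratio in vehicle was −0.249 with 44 below 1 (81.0% of all genes) and 1 at least 2-fold lower. That with AZA was 0.165 with 16 below 1 (75.1% of all genes) and 0 at least 2-fold higher. With normexp, 2 were at least 2-fold lower in MDS-L cells, and 19 were below 1 in MDS-L/CDA cells (52.8% of all genes). The line ratio in vehicle was −0.058 (−0.044 relative to all genes) with 33 below 1 (52.8% of all genes) and 1 at least 2-fold lower. That with AZA was 0.343 with 4 below 1 (45.6% of all genes) and 1 at least 2-fold higher. With AZA, quantile normalization and the authors' table each gave 2 genes below 1 between the lines (48.1% of all genes under each) and 1 at least 2-fold higher. Spike-in scaling gave 4 at least 2-fold higher. Both other rules for several probes gave 2 below 1 (38.2% and 39.3% of all genes). In vehicle, the line ratio relative to all genes was −0.33 without a filter and −0.008 with the mean over probes. At a ratio of 1.5, 15 genes were lower with AZA in MDS-L cells (18.1% of all genes). In MDS-L/CDA cells 1 was lower (9.6%) and 3 were higher (9.32%). Between the lines, 1 was lower and 1 higher in vehicle (1251 and 1275 of all 16015 genes), and 27 were higher with AZA (20.3%). The cause of these changes was not tested, except that a lower ratio calls more genes by construction. No paired analysis was possible because each condition has 1 array, and for the same reason no replicate could be left out. Signal was not a limit, since all 48 genes were well above background on all 4 arrays.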
